A study of Homo sapiens with 16 samples.

Results

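Transcript levels of the E2F transcription factors and of the RB-family proteins that control them were followed in SUM-225 cells over 45 h of HER2 inhibition. The genes were E2F1, E2F2, E2F3, E2F4, E2F7, E2F8, RB1, RBL1, RBL2 and MYBL2, and every probe carrying one of these symbols was taken, which gave 11 probes of 10 genes among 24526 probes with 18631 symbols. SUM-225 is a human breast cancer cell line with amplified HER2, and CP724,714 blocks the kinase activity of that receptor. The cultures received 1 µM CP724,714 in a medium that the labels describe as Ham's F-12 with fetal bovine serum, insulin and hydrocortisone, and the 0 h culture was taken at the start of treatment. The paper instead describes this line as kept in serum-free medium with neither EGF nor insulin, and the difference is not settled here. A separate culture was taken at each 3 h interval up to 45 h and hybridised to 1 Illumina bead array, so that there were 16 arrays and no replicates at any time. No untreated course was analysed here, and time in culture and the handling of the cells cannot be told apart from the inhibitor. The results describe 1 cell line and 1 dose.

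E2F factors bind the promoters of genes needed for DNA synthesis. In resting cells the pocket proteins RB1, RBL1 (p107) and RBL2 (p130) bind E2F factors and hold these genes silent, and in growing cells cyclin-dependent kinases phosphorylate the pocket proteins and set E2F free. HER2 signalling drives the cyclin D kinases that act on the pocket proteins in mammary epithelial cells, and several E2F and pocket protein genes are themselves E2F targets.

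Promoter sequences are shown first for RBL2, which rose, and for E2F2, E2F7 and RBL1, which fell by over 1 log2 unit, because E2F factors can act on the genes of their own family. The 250 bases before the annotated start were read 5′ to 3′ on the strand of the gene from the RefSeq promoter table of assembly GRCh38.p14. The window of E2F2 was chr1:23531234-23531483 on the minus strand and that of RBL1 was chr20:37095998-37096247 on the minus strand. The window of E2F7 was chr12:77065570-77065819 on the minus strand and that of RBL2 was chr16:53434221-53434470 on the plus strand. Capitals mark any of the 4 E2F forms searched on both strands, TTTCCCGC, TTTCGCGC, TTTGCCGC and TTTGGCGC.
E2F2 promoter: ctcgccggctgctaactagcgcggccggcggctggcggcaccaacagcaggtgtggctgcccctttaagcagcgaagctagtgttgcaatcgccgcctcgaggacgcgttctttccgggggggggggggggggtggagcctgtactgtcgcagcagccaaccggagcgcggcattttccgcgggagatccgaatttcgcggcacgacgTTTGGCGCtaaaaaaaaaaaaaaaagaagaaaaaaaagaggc
RBL1 promoter: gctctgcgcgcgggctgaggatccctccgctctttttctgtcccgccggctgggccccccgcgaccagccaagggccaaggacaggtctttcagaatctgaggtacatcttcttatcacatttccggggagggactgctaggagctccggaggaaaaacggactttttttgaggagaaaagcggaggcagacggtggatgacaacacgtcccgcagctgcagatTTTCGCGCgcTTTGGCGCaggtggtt
E2F7 promoter: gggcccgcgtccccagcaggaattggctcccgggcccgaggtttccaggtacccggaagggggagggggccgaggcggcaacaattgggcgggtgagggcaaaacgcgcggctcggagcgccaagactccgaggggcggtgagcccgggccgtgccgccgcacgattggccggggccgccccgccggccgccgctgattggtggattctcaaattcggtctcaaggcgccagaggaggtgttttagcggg
RBL2 promoter: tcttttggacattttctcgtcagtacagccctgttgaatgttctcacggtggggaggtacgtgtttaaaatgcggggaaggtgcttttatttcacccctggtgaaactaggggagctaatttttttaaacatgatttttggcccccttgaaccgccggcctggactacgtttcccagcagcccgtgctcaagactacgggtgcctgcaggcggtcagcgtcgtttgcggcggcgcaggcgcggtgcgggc

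E2F2 held TTTGGCGC, starting 42 bases before the start of the gene. RBL1 held TTTCGCGC 26 bases and TTTGGCGC 16 bases before its start, and the pair did not overlap. E2F7 and RBL2 held none of the 4 forms, which says only that these letters are not in the window. The window of E2F7 held CCAAT, the box read by NF-Y, 4 times on the opposite strand (attgg above), a motif that 34.6% of promoters hold on either strand. Of the 9 member genes with an entry in the table, the other genes with a form were E2F1, with GCGGCAAA and TTTGGCGC 33 and 20 bases before its start, and E2F3, with GCGGGAAA 53 bases before its outer start. E2F8 has no entry. The other entries, of E2F4, RB1 and MYBL2, held none, and that of RB1 starts inside the gene. Counting 300 bases for each promoter, from 250 before to 50 after the start, 3.31% of 35116 promoters held a form, as did 4.34% of the 11530 promoters whose gene symbol was tested here. A match describes these letters only and is not a measurement of binding.

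Of the 10 member probes that passed the detection filter, 7 were time-dependent when a cubic was fitted to the course with limma (F-test, adjusted p under 0.05), beside 51.3% of all 16110 probes tested. With 3 steps between windows of 4 arrays added to the cubic, E2F3 and RBL2 passed and the other 5 calls were lost. The linear change over 45 h was past the threshold for 7 probes, beside 47.7% of all probes. E2F2, E2F3, E2F4, E2F7, E2F8 and RBL1 fell, beside 21.7% of all probes, and RBL2 rose, beside 26% of all probes. The values of E2F1, RB1 and MYBL2 did not pass. The sizes differed widely, from -3.13 ± 0.37 (SE, 16 arrays) for E2F7 to 0.93 ± 0.08 for RBL2, both on the log2 scale, while the median over all probes tested was 0.05. The course departed from a straight line for 5 of the 10 probes, E2F2, E2F3, E2F7, RBL1 and RBL2, beside 19.3% of all probes. Of the 16 fits that left out 1 array, E2F2 lost this call in 11 and RBL1 in 13, E2F7 without the 12 or 18 h array, and E2F3 and RBL2 without the 0 h array. With 10 probes, these shares were not far above the background for time or for linear change.

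**Figure D1:**
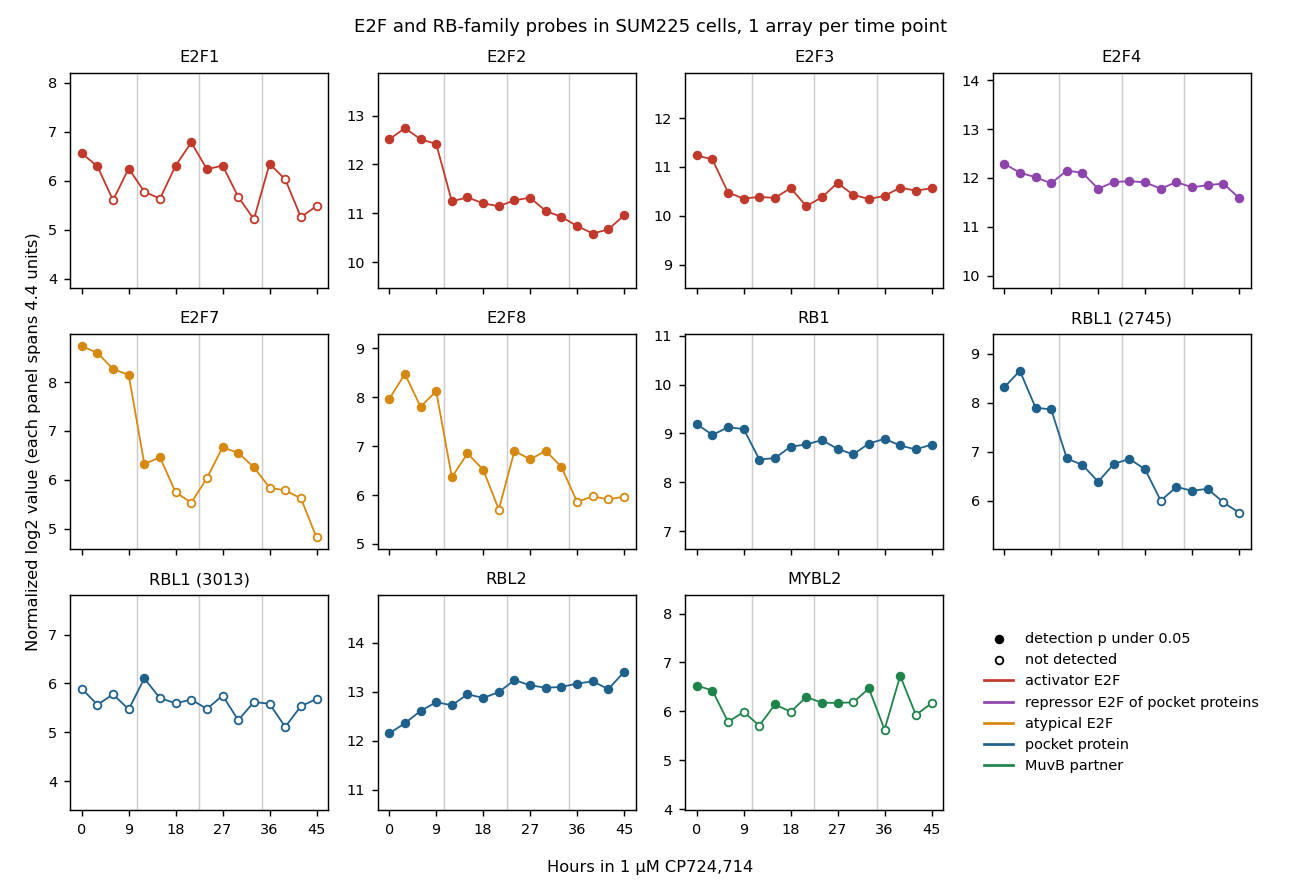
Signal of each member probe by hours in 1 µM CP724,714, in log2 units after background correction and quantile normalization, with 1 array per point. E2F2, E2F7, E2F8 and RBL1 step down between 9 and 12 h, and RBL2 climbs from 0 h onward.

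**Figure D2:**
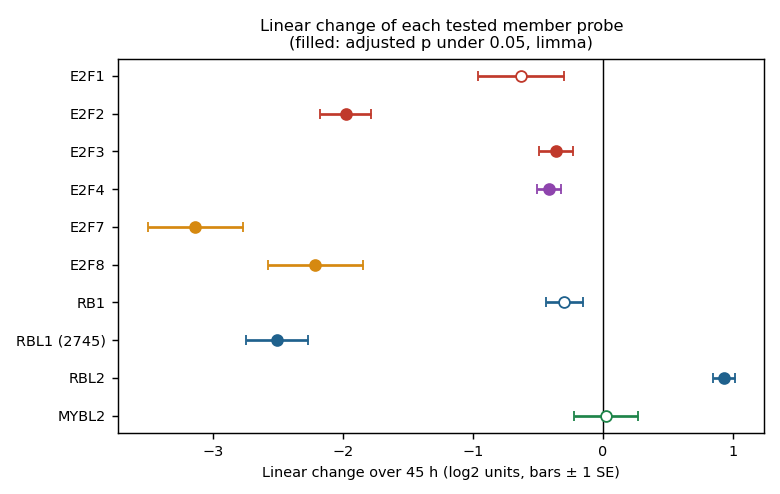
Linear change over 45 h of the 10 tested member probes in log2 units, with bars of 1 SE from the limma fit over 16 arrays and filled points at an adjusted p under 0.05. E2F7, RBL1, E2F8 and E2F2 lie below -1, and RBL2 alone lies above 0 with a filled point.

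E2F1, E2F2 and E2F3 are the activators that RB1 holds in check. Of these, E2F2 fell by 1.98 ± 0.20 on the log2 scale (adjusted p = 1.15e-07, limma). Its log2 signal was 12.51, 12.74, 12.52 and 12.42 at 0, 3, 6 and 9 h and 11.25, 11.33, 11.20 and 11.15 at 12, 15, 18 and 21 h. It was 11.27, 11.32, 11.05 and 10.93 at 24, 27, 30 and 33 h and 10.74, 10.59, 10.67 and 10.96 at 36, 39, 42 and 45 h. The 4 arrays up to 9 h were level and all lay above every later array. Where the first 4 arrays are set against every later one, here and below, the share over all probes was not counted. The normalized signal at 0 h was 2.94-fold that at 45 h, between single arrays. Between the mean log2 signals of 0 to 9 h and 36 to 45 h the fall was 3.50-fold. The probe was detected on all 16 arrays, and the promoter of its gene, printed above, holds 1 E2F form.

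E2F3, the activator with separate long and short forms from different starts, moved earlier and less. Its log2 signal was 11.24 and 11.16 at 0 and 3 h, 10.48 and 10.35 at 6 and 9 h, and between 10.20 and 10.67 on the later 12 arrays. The fall between 3 and 6 h was 0.68 on the log2 scale, and no later array came back to the level of 0 and 3 h. The fitted linear change was -0.36 ± 0.13 (adjusted p = 0.029, limma), which rested on the first arrays. Without the 0 h array it was -0.14 (adjusted p = 0.475, limma) and without the 3 h array -0.20 (adjusted p = 0.252, limma).

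E2F1, the best known activator, was near the detection limit. It was detected on 8 of 16 arrays, and its log2 signal ranged from 5.21 at 33 h to 6.78 at 21 h. Its mean was 6.18 over 0 to 9 h, 6.13 over 12 to 21 h, 5.86 over 24 to 33 h and 5.78 over 36 to 45 h. Its fitted change of -0.63 ± 0.33 did not pass (adjusted p = 0.129, limma). At this signal the probe gives only a weak reading of the gene.

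E2F4, the repressor that carries RBL2 to promoters, fell by 0.41 ± 0.09 on the log2 scale (adjusted p = 0.00126, limma). Its log2 signal was 12.29 on the 0 h array, between 11.78 and 12.15 from 3 to 42 h, and 11.59 at the end, and it was detected on every array. Its largest differences between neighbouring arrays were 0.26 upward, from 9 to 12 h, and -0.32 downward, from 15 to 18 h. The test of curvature did not pass (adjusted p = 0.512, limma). E2F7 and E2F8, the atypical repressors, bind DNA without a DP partner or a pocket protein, and both are dim on these arrays. E2F7 fell by 3.13 ± 0.37 on the log2 scale (adjusted p = 8.29e-07, limma), the largest value among the members, and E2F8 fell by 2.21 ± 0.36 (adjusted p = 4.69e-05, limma). Without background correction the values were -1.49 and -0.99, still past the threshold, and that of E2F2, at -1.87, was then the largest.

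The log2 signal of E2F7 was 8.73, 8.60, 8.27 and 8.15 at 0, 3, 6 and 9 h and 6.32, 6.46, 5.74 and 5.53 at 12, 15, 18 and 21 h. It was 6.04, 6.67, 6.55 and 6.26 at 24, 27, 30 and 33 h and 5.84, 5.78, 5.62 and 4.83 at 36, 39, 42 and 45 h. No array from 12 h on reached the level of the first 4, and the last 4 lay below every array of 24 to 33 h. E2F7 was detected on 9 of 16 arrays, and not at 18, 21 or 24 h nor from 36 h on. A bound was taken after background correction, with the 45 h array at the lowest signal that counted as detected there. By this bound E2F7 was at least 5.63-fold lower at 45 h than at 0 h. The bound holds on that scale only, and the uncorrected signals of E2F7 were 559 at 0 h and 156 at 45 h.

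The log2 signal of E2F8 was 7.96, 8.48, 7.81 and 8.12 at 0, 3, 6 and 9 h and 6.36, 6.85, 6.52 and 5.70 at 12, 15, 18 and 21 h. It was 6.90, 6.73, 6.90 and 6.58 at 24, 27, 30 and 33 h and 5.86, 5.97, 5.91 and 5.97 at 36, 39, 42 and 45 h. The arrays of 36 to 45 h lay below all those of 24 to 33 h. E2F8 was detected on 11 arrays, and not at 21 h nor from 36 h on. By the same bound after background correction it was at least 3.30-fold lower at 45 h than at 0 h. Its uncorrected signals were 397 at 0 h and 222 at 45 h.

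Of the pocket proteins RBL2 rose and RBL1 fell. RBL2, which joins E2F4 and the MuvB proteins in the DREAM complex of resting cells, rose by 0.93 ± 0.08 on the log2 scale (adjusted p = 2.76e-08, limma). Its log2 signal was 12.15, 12.36, 12.61 and 12.79 at 0, 3, 6 and 9 h and 12.72, 12.95, 12.87 and 12.99 at 12, 15, 18 and 21 h. It was 13.24, 13.13, 13.08 and 13.10 at 24, 27, 30 and 33 h and 13.17, 13.21, 13.05 and 13.40 at 36, 39, 42 and 45 h. The rise had begun by 3 h, reached 0.64 by 9 h and slowed after 24 h. The normalized signal at 45 h was 2.39-fold that at 0 h, between single arrays. Between the mean log2 signals of 0 to 9 h and 36 to 45 h the rise was 1.66-fold.

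RBL1, the pocket protein that is itself made as cells enter S phase, fell by 2.50 ± 0.24 on the log2 scale (adjusted p = 5.99e-08, limma) at probe ILMN_1782745, and without background correction by 1.13. Its log2 signal was 8.31, 8.65, 7.90 and 7.86 at 0, 3, 6 and 9 h and 6.86, 6.73, 6.38 and 6.75 at 12, 15, 18 and 21 h. It was 6.85, 6.64, 6.00 and 6.28 at 24, 27, 30 and 33 h and 6.20, 6.24, 5.96 and 5.75 at 36, 39, 42 and 45 h. All 4 arrays up to 9 h lay above every later array, and the probe was not detected at 30, 42 and 45 h. By the same bound after background correction RBL1 was at least 4.21-fold lower at 45 h than at 0 h. The uncorrected signals of this probe were 463 at 0 h and 213 at 45 h. The other RBL1 probe, ILMN_1753013, was detected on 1 array and was not tested.

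RB1, the founding pocket protein, had a small linear change, and its largest step was -0.62, from 9 to 12 h. Its log2 signal was 9.19, 8.97, 9.13 and 9.09 at 0, 3, 6 and 9 h and 8.47, 8.50, 8.73 and 8.78 at 12, 15, 18 and 21 h. From 24 h on it stayed between 8.57 and 8.89, and every later array lay below the first 4. The linear change of -0.30 ± 0.14 did not pass (adjusted p = 0.0941, limma), although it did without the 12 h array, at -0.37 (adjusted p = 0.0316, limma). MYBL2 (B-MYB), the MuvB partner of dividing cells, was detected on 8 arrays, with a log2 signal between 5.63 and 6.73 and a change of 0.03 ± 0.25 (adjusted p = 0.942, limma). A probe at this level could show only a large change.

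The arrays were next compared in 4 windows of 4 consecutive arrays, to place the changes in time. The arrays of a window are different times, so that change within a window is part of the error. Between 0 to 9 h and 12 to 21 h, 7 of the 10 member probes differed at an adjusted p under 0.05 in limma, beside 29.8% of all probes. E2F2, E2F3, E2F7, E2F8, RB1 and RBL1 were lower, beside 13.9% of all probes, and RBL2 was higher, beside 15.9%. The differences were -2.42 ± 0.25 for E2F7, -1.73 ± 0.20 for E2F8, -1.50 ± 0.21 for RBL1 and -1.32 ± 0.10 for E2F2. They were smaller for RB1, at -0.48 ± 0.11 (adjusted p = 0.00212, limma), for E2F3, at -0.42 ± 0.16 (adjusted p = 0.0488, limma), and for RBL2, at 0.41 ± 0.11 (adjusted p = 0.008, limma). The E2F3 call was lost without a filter and in 12 of the 16 fits that left out 1 array, and the RBL2 call with median scaling. E2F2, E2F7, E2F8, RB1 and RBL1 had all 4 arrays of 12 to 21 h below all 4 of 0 to 9 h, as did 13% of all probes. How many of all probes kept this separation on every later array was not counted.

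The change was concentrated between the single arrays of 9 and 12 h. The log2 differences there were -1.82 for E2F7, -1.76 for E2F8 and -1.17 for E2F2, and RBL1 went from 7.86 to 6.86, so that 4 of 10 member probes fell by at least 1, beside 1.79% of all probes. RBL2 and E2F3 did not share this step, with differences of -0.07 and 0.03. RB1 fell there by less, with a difference of -0.62, and E2F4 rose, with 0.26. The differences of E2F1 and MYBL2, near the detection limit, were -0.48 and -0.27. The step falls between the windows of 0 to 9 h and 12 to 21 h. At the later window borders, 0.912% of all probes fell by at least 1 at 21 to 24 h and 0.95% at 33 to 36 h. Inside windows the share ran from 0.161% at 18 to 21 h to 2.03% at 42 to 45 h. The labels name no batch, and the part of any batch of arrays in the result was not tested. With the window as a factor beside a straight line, no member probe passed, beside 0.9% of all probes, and the slopes were -2.94 ± 0.98 for E2F7 (adjusted p = 0.16, limma), -2.54 ± 0.82 for RBL1 (adjusted p = 0.147, limma) and 1.12 ± 0.45 for RBL2 (adjusted p = 0.248, limma). That of E2F2 was -0.56 ± 0.47 (adjusted p = 0.626, limma), so that within windows its fall was not resolved.

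From 12 to 21 h to 24 to 33 h no member probe passed in limma, beside 7.57% of all probes (4.21% higher and 3.36% lower), and all 4 RBL2 arrays of 24 to 33 h lay above those of 12 to 21 h, as did 10% of all probes. From 24 to 33 h to 36 to 45 h, E2F8 was lower by 0.85 ± 0.20 (adjusted p = 0.0192, limma) and E2F2 by 0.40 ± 0.10 (adjusted p = 0.0298, limma), beside 3.54% of all probes (0.72% higher and 2.82% lower). The E2F7 difference of -0.86 ± 0.25 did not pass (adjusted p = 0.064, limma), although the arrays did not overlap, as for E2F8 and for 6.19% of all probes. Both calls were lost without the 24 h array and without the 42 h array, that of E2F2 also without the 27, 36 or 39 h array and with median scaling, and that of E2F8 also without the 30 h array and without background correction.

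**Figure D3:**
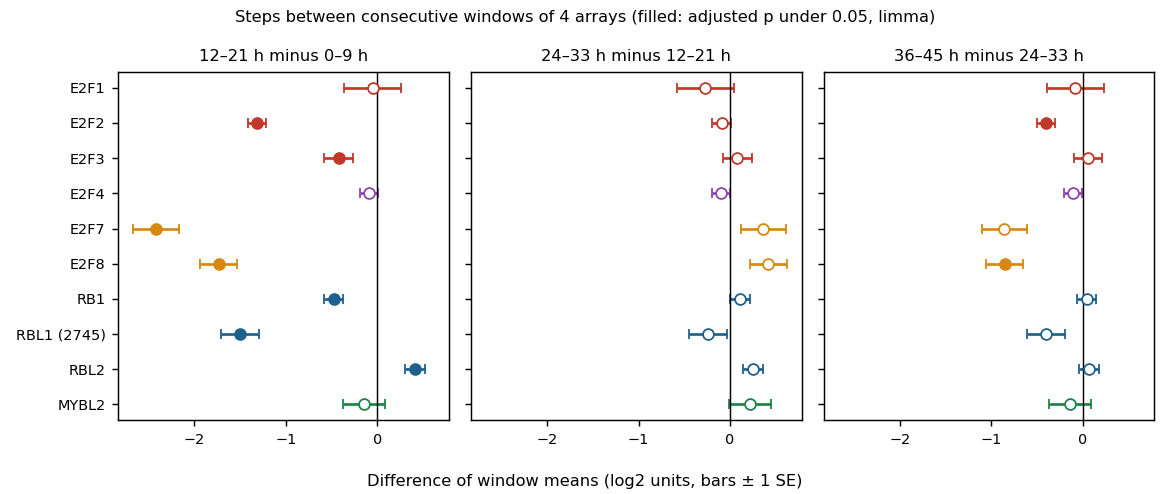
Difference of window means in log2 units for each tested member probe, between consecutive windows of 4 arrays, with bars of 1 SE from limma. E2F7, E2F8, RBL1 and E2F2 lie below -1 between 0 to 9 h and 12 to 21 h, and the differences between the next windows are smaller.

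Across the 16 arrays E2F2, E2F7, E2F8 and RBL1 followed like courses. The log2 signals of E2F2 and RBL1 had a Pearson r of 0.96, those of E2F2 and E2F8 of 0.94 and those of E2F2 and E2F7 of 0.93. The falls of E2F3 and E2F4 were less alike to that of E2F2, with an r of 0.55 and 0.59. E2F2 and RBL2 had an r of -0.84 over the levels, but of 0.41 over the differences between neighbouring arrays, in which the trend is removed. These values share the same arrays and the same trend in time, and they are given as a description. The courses nearest to that of E2F7 among 13097 genes were those of SNRPB, a spliceosome core protein, GSTA2, a glutathione transferase, and FADS1, a fatty acid desaturase, with r between 0.96 and 0.97. The nearest to RBL2 were HIST2H2AC, a histone, OR3A4, an olfactory receptor locus, and ZNF181, a zinc finger gene, each with an r of 0.97. Chosen after their values were seen, the nearest to E2F2 were POLA2 and MCM2, which act in DNA replication, and the tubulin gene TUBB3, each with an r of 0.99, and the nearest to RBL1 was RRM2, a subunit of ribonucleotide reductase, with an r of 0.97.

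The genes around the members were grouped by role, with 1 probe for each gene. Of the other E2F and DP proteins, TFDP1, a DP partner of E2F factors, fell by 0.70 ± 0.09 on the log2 scale (adjusted p = 2.93e-06, limma). E2F5, E2F6 and TFDP2 did not pass. Of 6 tested MuvB proteins and partners, 4 fell, beside 21.7% of all probes. FOXM1, the activator of mitotic genes, fell by 3.30 ± 0.24 on the log2 scale, and LIN9, LIN52 and RBBP4 fell less, while LIN37 and MYB did not pass. The median over the 6 was -0.77, beside 0.05 over all probes.

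Among 8 tested RB kinases and cyclins, 5 fell and 1 rose, beside 21.7% and 26% of all probes, shares that also stand beside the counts of the next lists. CCNA2, the S phase cyclin, had the largest fall, at -3.19 ± 0.26 on the log2 scale. CCNE1, CCNE2, CDK2 and CDK4 fell too, CCND3 rose by 0.55 ± 0.08, and CCND1 and CDK6 did not pass. CCND2 was detected on no array. Of 7 CDK inhibitors, CDKN1B, CDKN1C and CDKN2B rose, and CDKN1A, CDKN2A and CDKN2D did not pass, with values of -0.16, -0.37 and -0.25. The probe used for CDKN2C rose too, by 2.13 ± 0.23, but its probes gave calls in opposite directions, from -1.01 to 2.13, and the gene has no clear direction. Between 0 to 9 h and 12 to 21 h, CDKN1A and CDKN2A were lower, beside 13.9% of all probes, and CDKN2B was higher, beside 15.9%. From 12 to 21 h to 24 to 33 h, CDKN1A was higher by 0.71 ± 0.15 and CDKN1C by 0.61 ± 0.17, beside 4.21% of all probes. CDKN2B, which blocks the cyclin D kinases, rose by 1.12 ± 0.10.

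Of 7 corepressors that pocket proteins recruit, SUV39H1, a histone methyltransferase, fell by 1.19 ± 0.12 on the log2 scale, RBBP7 fell by 0.50, and HDAC1, HDAC2, HDAC3, SIN3B and ARID4A did not pass. Of 5 genes of ubiquitin ligases or their regulators, CCNF, CKS1B, FBXO5 and SKP2 fell, with CCNF at -2.27 ± 0.17, and again 21.7% of all probes fell. The FBXO5 probe was detected on 6 arrays. The SKP2 probes differed in their calls, from -1.62 to -0.38, and FZR1 did not pass. The median was -0.14 over the corepressors and -1.68 over the ligase genes and regulators.

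**Figure D4:**
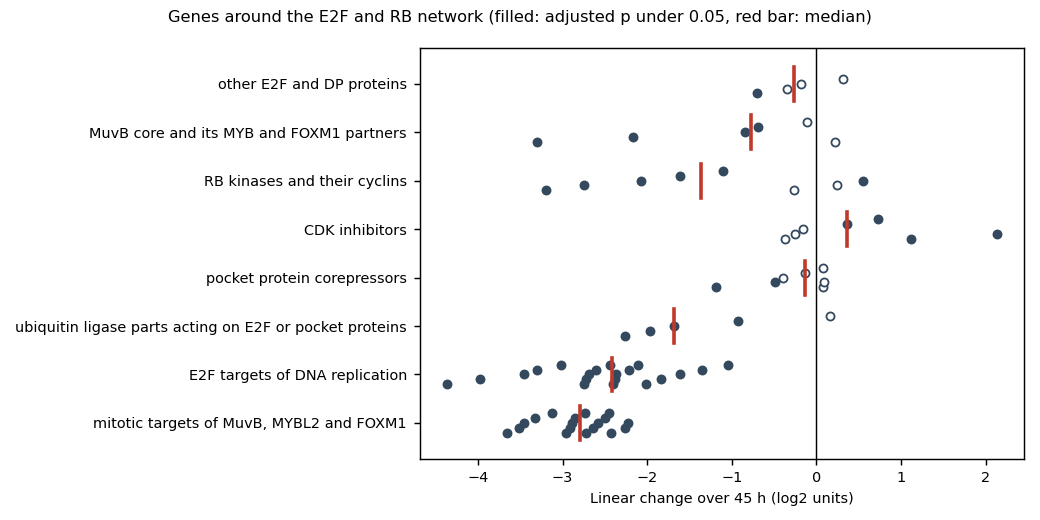
Linear change over 45 h in log2 units of each tested gene in 8 lists around the E2F and RB network, with filled points at an adjusted p under 0.05 in limma and a red bar at the median of each list. All points of the replication and mitotic target lists lie below 0, and those of the CDK inhibitors lie on both sides.

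Every tested gene of both target lists fell. All 20 tested E2F targets of DNA replication fell, beside 21.7% of all probes, with a median of -2.42 and RRM2 the largest, at -4.36 ± 0.40. The PCNA probes differed in their calls, from -1.61 to -0.41. GINS1 was listed too but had no probe under that symbol, and an older symbol was not read. All 18 mitotic targets of MuvB, MYBL2 and FOXM1 fell, with a median of -2.79 and BIRC5, an inhibitor of apoptosis that is made at mitosis, the largest, at -3.65 ± 0.29. The difference in timing between the lists was not tested. Between 0 to 9 h and 12 to 21 h all 20 replication targets were lower, as were E2F2, E2F7, E2F8 and RBL1, but 9 of 18 mitotic targets, beside 13.9% of all probes. Between 24 to 33 h and 36 to 45 h, 7 of the 20 and all 18 were lower, as were E2F2 and E2F8, beside 2.82% of all probes. The median replication target, centred on its mean over the course, was 1.15 at 9 h and -0.19 at 12 h, and the median mitotic target was -0.06 at 33 h and -1.46 at 36 h. Both steps fall on borders between windows, and the part of any batch of arrays in them was not tested. These lists were chosen with results of these arrays known and are not independent evidence of their direction. In an array of a whole culture, fewer cells in a phase of the cycle and less RNA per cell cannot be told apart, for the targets or for the members.

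**Figure D5:**
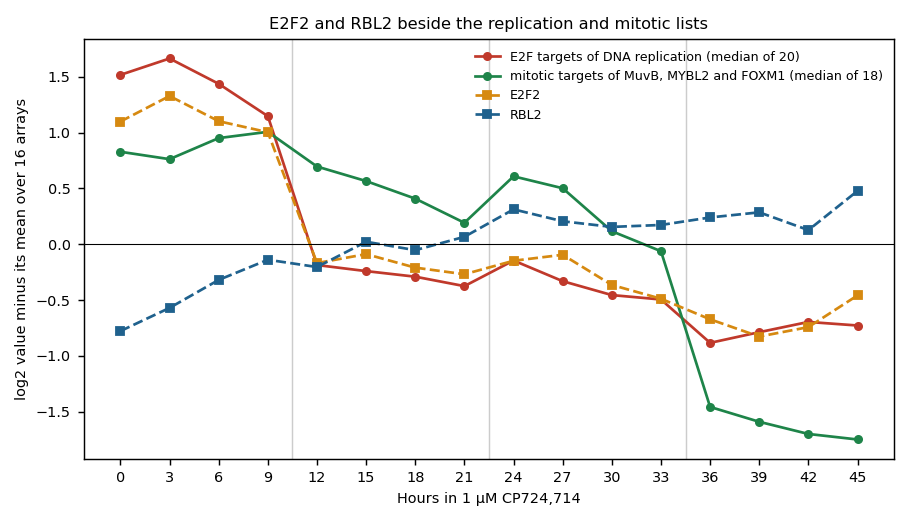
Median course of the 20 replication and 18 mitotic targets, with E2F2 and RBL2, by hours in CP724,714, in log2 units centred on the mean of each probe over 16 arrays. The replication targets step down with E2F2 between 9 and 12 h, and the mitotic targets between 33 and 36 h, both on borders between windows.

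The cell line was checked with marker genes. The 8 epithelial and HER2 amplicon markers, among them KRT8, CDH1, EPCAM, ERBB2 and GRB7, were detected on all 16 arrays. PTPRC, COL3A1 and ALB, markers of leukocytes, fibroblasts and liver, were detected on no array, CD3E and CDH5 on 1, COL1A1 on 5 and the endothelial PECAM1 on 16. Between 57.5% and 61.5% of probes were detected per array, and the median signal ranged from 242 to 384.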

How the data were processed

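RNA from 16 parallel cultures, grouped by the time in their labels, was hybridised to 1 Illumina array each. The deposited values are signal intensities, which the authors left without background subtraction or normalization. A detection p-value was deposited beside each. The study's methods describe quantile normalization as a later step, and the array version is not given in the labels. Signals were corrected and normalized with neqc of limma 3.58.1 in R 4.3.3 (offset 16, quantile, log2). Without the background correction, dim probes changed less. The test covered the 16110 probes detected (p under 0.05) on 3 or more arrays. A cubic polynomial in hours, and separately a factor of 4 windows of 4 arrays, were fitted with lmFit and eBayes (trend). Tests were two-sided and adjusted by Benjamini-Hochberg over all probes tested, at 0.05. Without replicates, the error came from deviations around the fit and also holds any change the fit cannot follow. A fold bound sets an undetected signal to the lowest detected signal of its array, after background correction, and holds on that scale only. The fits were tested on simulated data.

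The members and lists were chosen with earlier results of these data known. Named genes were all member probes, the largest rise and fall of each list with any member needed to say which did not pass, and the 3 nearest courses of the members with the largest fall and rise. The probe with the highest mean stood for a gene. 1 gene of the marker list is not reported here. CDK1 was read under its older symbol CDC2. Promoters came from a RefSeq table of GRCh38.p14. The alternatives were the background, offset, normalization, filter, weights, course and each array left out. Matplotlib 3.10.9 under Python 3.11.15 drew the figures.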

Additional observations from a re-analysis of the deposited data

How the results depend on the processing

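Of 383 values recomputed under the alternatives, 331 kept their direction and side of the threshold or, for counts, stayed within 1.5 times. The number of member probes lower or higher between 24 to 33 h and 36 to 45 h was 1 in place of 2 without background correction, with median scaling and with detection on all 16 arrays. With detection on all 16 arrays, which removes dim probes, 4 passed the linear test, 3 the test of curvature and 4 the comparison of 12 to 21 h with 0 to 9 h, and without a filter 3 passed the test of curvature. Array weights gave 1 probe between 12 to 21 h and 24 to 33 h in place of 0. The linear test was passed by 0 probes with the 12 h window as a factor and by 4 with a step between 21 and 24 h, and the time test by 2 (E2F3 and RBL2) with 3 steps beside the cubic. The cause was not tested. Leaving out each array gave 6 to 8 probes for time, 6 to 8 for linear change, 2 to 5 for curvature (2 without 18 h), 6 to 7 (E2F3 lost), 0 to 0 and 0 to 2 for the successive windows.

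The linear change of MYBL2 ranged from -0.14 to 0.19 when each array was left out. It was -0.15 with array weights and -0.075, -0.0093, -0.048, -0.030 and -0.14 without the 6, 9, 12, 33 and 39 h arrays. That of RB1 was 0.095 with the window as a factor, and that of E2F1 was 0.20 with the step between 21 and 24 h. None of these passed. Without background correction the falls of E2F7, E2F8 and RBL1 were smaller, at -1.49, -0.99 and -1.13, and still passed. E2F3 lost its call with a straight line, and RBL2 missed the threshold with the step (0.56, adjusted p = 0.0506, limma). Cyclic loess moved the share of rises among all linear calls from 54.5% to 48%, and RB1 then passed. No paired analysis was possible because the time points had 1 array each. Signal over background limits E2F1, MYBL2, E2F7, E2F8 and RBL1, and the number of arrays limits all estimates.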
